A study of Cichorium intybus with 5 samples.

Results

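A set of 4 chicory (Cichorium intybus) cDNA clones for proteins of cell membranes were followed through somatic embryogenesis (SE) induction: remorin (clone N104B1), a receptor-like kinase (N103A5), amino acid permease 6 (E002B7) and a voltage-dependent anion channel protein (E010D10). They were chosen by clone name, and all 4 were found among the 2112 probes of the deposited table. The gene names come from the study's list of regulated genes, matched by clone. That list was itself selected on these samples, so the values below describe the 4 genes and are not independent evidence that they respond.

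RNA of leaf explants was compared on 2-colour cDNA microarrays, and every value is the log2 of a ratio between 2 kinds of explant. The genotypes were K59, which is embryogenic, and C15, which is non-embryogenic and was obtained by selfing K59. All explants were cut from in vitro plantlets 2 months old, with 12 plants per replica. Induced explants (d4) were cultured for 4 days at 35°C in the dark in shaken SE induction medium, treated explants (Y+) were cultured in the same way with 250 µM β-Glc Y, a glucosylated Yariv reagent known for binding arabinogalactan-proteins, and untreated explants (Y-) had 4 days of culture without it. Explants without culture were the d0 samples. The 5 comparisons were d4 vs. d0 in K59 and then in C15, Y+ vs. Y- in K59 and then in C15, and the d0 explants of K59 vs. those of C15. Each genotype is a single line, and culture, temperature and darkness are all part of the d4 vs. d0 contrast. In leaf RNA a change in the share of a cell type cannot be told apart from a change in RNA per cell.

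Remorins are plant-specific proteins anchored to the inner face of the plasma membrane, where they gather in small membrane domains. Receptor-like kinases carry signals across the plasma membrane by phosphorylating proteins inside the cell, and form one of the largest gene families of plants. Amino acid permeases take up amino acids together with protons, and voltage-dependent anion channels are the main pores for metabolites in the outer membrane of mitochondria.

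The deposited design gives 3 biological replicates and 6 hybridizations per comparison and excepts K59 d0 vs. C15 d0 from the 6, an exception that the study's methods do not make. A single value is listed for each probe in each comparison. No replicate spread is available here, so no difference could be tested and neighbouring values cannot be ordered with confidence. The study itself applied a false discovery rate limit and a significance analysis to its replicates. It also measured selected genes, a remorin gene among them, by quantitative RT-PCR. None of these results was used here. A probe is called past the threshold when its log2 ratio reaches 1 or -1, a limit taken from the study's methods, and each member is set beside all probes with a value in the same comparison. According to the study, the arrayed clones had been pre-selected in subtracted cDNA libraries of K59 and C15 at d4. All probes are therefore no neutral sample of chicory genes, and shares and ranks hold for this array only. The ratios are read as the labels order the samples, a direction that the design and figure legends of the study share for induction and β-Glc Y and that is therefore likely. For K59 d0 vs. C15 d0 it is not settled. Its ratios correlate negatively across probes with those of C15 d4 vs. C15 d0 (r = -0.52, 491 probes). These share the C15 d0 denominator, which by itself would make the correlation positive. The correlation with K59 d4 vs. K59 d0 is also negative (r = -0.54, 486 probes). There K59 d0 is the numerator of the first ratio and the denominator of the second, so the label predicts a negative sign.

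The study's gene list also carries ratios of its own, which are not used here and which conflict with the deposited ones in some places. With β-Glc Y it places amino acid permease 6, the anion channel and a nuclear receptor (E002E12) close to equal signal in both genotypes, where the deposited ratios are clearly negative. It also places the anion channel inside the threshold in C15 after induction, where the deposited ratio is past it, and it gives non-zero d0 ratios for the receptor-like kinase and the anion channel. Which source holds is not settled, so the deposited values of these genes in these comparisons are open to that doubt.

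After 4 days of SE induction, remorin, amino acid permease 6 and the anion channel were higher in K59 d4 than in K59 d0, and the receptor-like kinase was lower. The number past the threshold was 3 of 4 upwards and 1 of 4 downwards, where 17.3% of all 867 probes passed it upwards and 23.4% downwards. In C15 only the anion channel passed it, 1 of 4 upwards against 1.54% of 1169 probes, and none passed it downwards against 8.30%. Over all probes these ratios were spread more widely in K59 than in C15, with scaled median absolute deviations of 1.16 and 0.30. Differences between the genotypes after induction thus owe more to the K59 values over all probes.

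**Figure D1:**
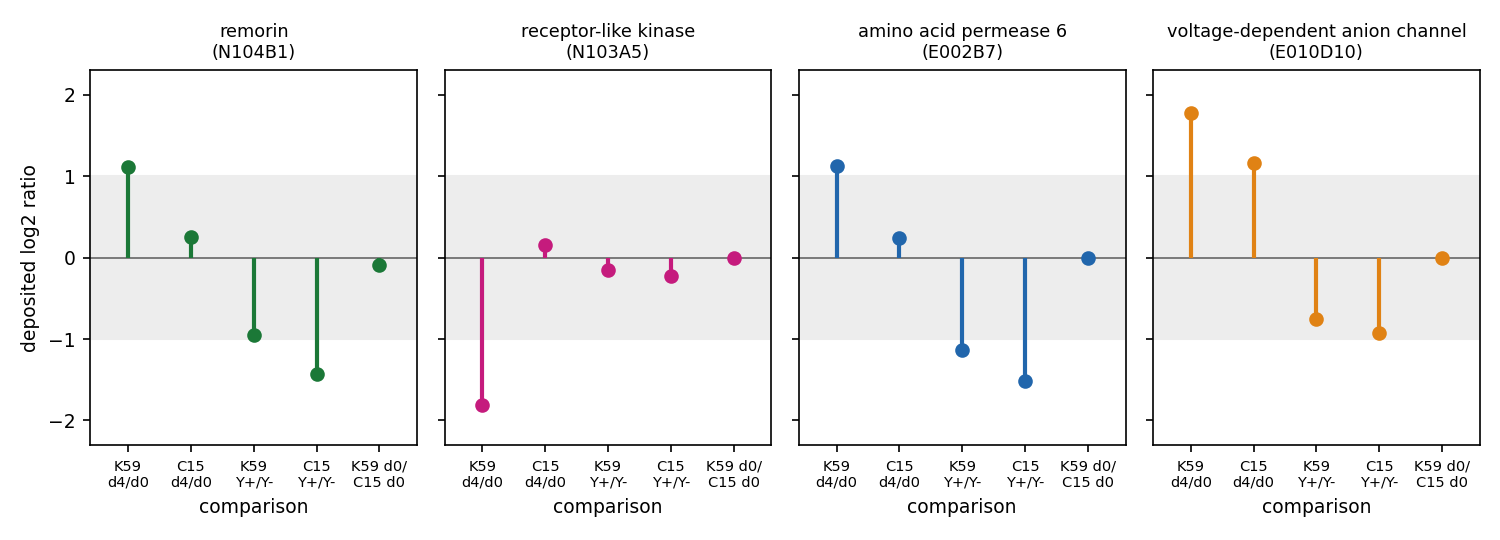
Deposited log2 ratio (vertical axis) of each of the 4 genes in the 5 comparisons (horizontal axis), 1 point per comparison with no error available, and with the range between -1 and 1 shaded. Remorin and amino acid permease 6 have nearly the same 5 values, the anion channel lies above 1 in both induction comparisons, and the receptor-like kinase leaves the shaded range only in K59 d4 vs. K59 d0, at -1.81.

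Remorin had a log2 ratio of 1.11 in K59 d4 vs. K59 d0, a 2.16-fold higher signal, and 0.25 in C15 d4 vs. C15 d0. The study reports remorin as up-regulated during induction in K59 but not in C15. At its limit of 1 the deposited ratios give the same calls. Remorin was the 115th highest of 867 probes in K59 and the 250th highest of 1169 in C15, so that it stood out from the other probes in neither. Its genotypes differed by 0.86 (K59 minus C15), a difference at least matched in size by 36.3% of the 811 probes with both values. The other probes of its plate behaved differently in K59, with a median log2 ratio of -1.41 over 29 probes.

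Amino acid permease 6, which in Arabidopsis is a high-affinity amino acid carrier, reached a log2 ratio of 1.12 after induction of K59 and 0.24 after that of C15. Both values lie within 0.01 of those of remorin. In K59 the signal was 2.17-fold higher in d4 than in d0 explants. With the median of its own plate subtracted, 0.28 over 42 probes, the K59 value was 0.85 and below the threshold.

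The anion channel had the largest increase of the 4 genes in both genotypes, with log2 ratios of 1.78 (K59) and 1.16 (C15), or 3.43-fold and 2.23-fold. In C15, where the sources conflict, it was the 8th highest of 1169 probes, and in K59 the 38th highest of 867. It was 1 of 6 probes at or above 1 in both genotypes, 0.740% of the 811 with both values. None of the 4 genes was at or below -1 in both, against 10.9% of these probes. Its genotypes differed by 0.62, and 49.9% of probes differed by at least as much, so the K59 value exceeded the C15 value by no more than was usual on this array.

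The receptor-like kinase was the only member with opposite signs in the genotypes. Its log2 ratio was -1.81 in K59, the 119th lowest of 867 and a 3.51-fold lower signal in d4 than in d0 explants, and 0.16 in C15. The difference of -1.97 was the 33rd lowest of 811, and 5.8% of probes differed by at least as much in either direction. Signs were opposite for 145 of the 811 probes, and 16 of these, 1.97% of all, were at or below -1 in K59. The difference between the genotypes was not tested.

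**Figure D2:**
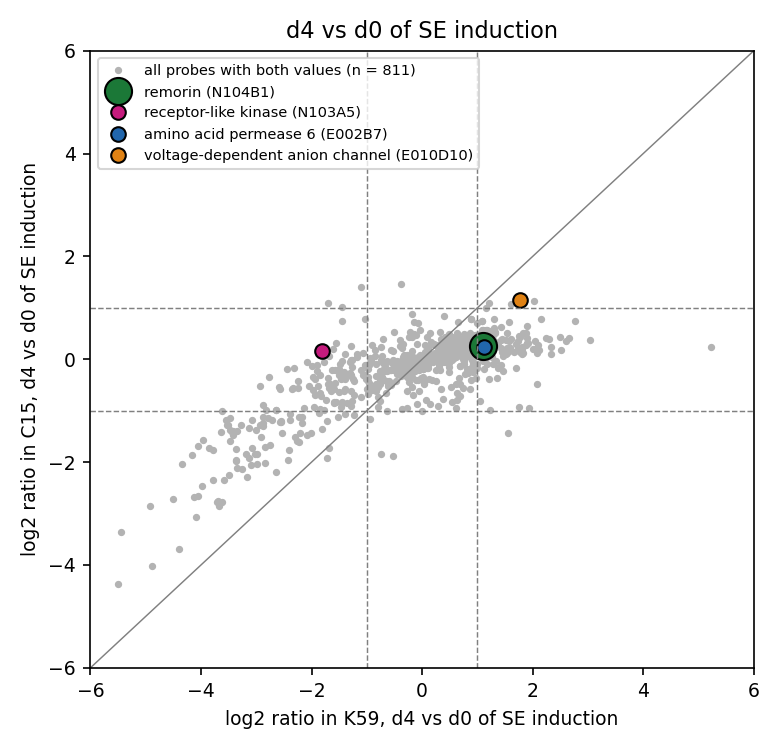
Log2 ratio of d4 vs. d0 in K59 (horizontal axis) against C15 (vertical axis) for the 811 probes with both values, in grey, with the 4 genes in colour (remorin drawn larger only to stay visible), the thresholds of 1 and -1 dashed and the line of equal values drawn. The remorin and amino acid permease points coincide at about 1.1 in K59 and 0.2 in C15, the anion channel lies at the upper right, and the receptor-like kinase lies to the left with a C15 value near 0.

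In the presence of β-Glc Y, remorin, amino acid permease 6 and the anion channel were lower in Y+ than in Y- explants of both genotypes, and the receptor-like kinase lay close to 0. In K59 the number at or below -1 was 1 of 4 (2.00% of all 1201 probes), and in C15 2 of 4 (3.81% of 1260 probes). None of the 4 reached 1, against 0.583% of probes in K59 and 1.03% in C15.

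Amino acid permease 6 had the lowest deposited values of the 4 genes, with log2 ratios of -1.14 (K59) and -1.51 (C15). These were the 7th lowest of 1201 probes and the 6th lowest of 1260, and the signal was 2.2-fold and 2.85-fold lower in Y+ explants. It is 1 of 18 probes at or below -1 in both genotypes, 1.72% of the 1044 with both values, whereas 0.575% were at least 1 in both and no member was. This rests on the deposited values alone, since the study's list places the gene inside the threshold in both genotypes.

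Remorin had a log2 ratio of -0.95 in K59, just inside the threshold and the 27th lowest of 1201 probes, and -1.43 in C15, the 11th lowest of 1260. Its signal was thus 1.93-fold and 2.69-fold lower in Y+ explants. The study reports remorin as down-regulated by the reagent in both genotypes. It counts repression from a log2 ratio of -1, which the deposited K59 value does not reach. The K59 value was higher than the C15 value by 0.48, and 6.8% of the 1044 probes differed by at least as much.

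The anion channel stayed inside the threshold with log2 ratios of -0.75 (K59) and -0.92 (C15), the 59th lowest of 1201 probes and the 53rd lowest of 1260, and for it too the study's list has ratios close to equal signal. The receptor-like kinase had -0.15 in K59 and -0.22 in C15. Of all probes, 52.6% lay at least as far from 0 in K59 and 32.9% in C15, so that this gene was not set apart by the reagent. For all 4 genes the K59 value was the higher one, by 0.48 for remorin, 0.37 for the permease, 0.17 for the anion channel and 0.07 for the kinase. The median difference over all probes was 0.01. Differences of at least that size in either direction were found in 6.8%, 13.5%, 41.1% and 72.4% of the 1044 probes, so those of the anion channel and the kinase were common.

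**Figure D3:**
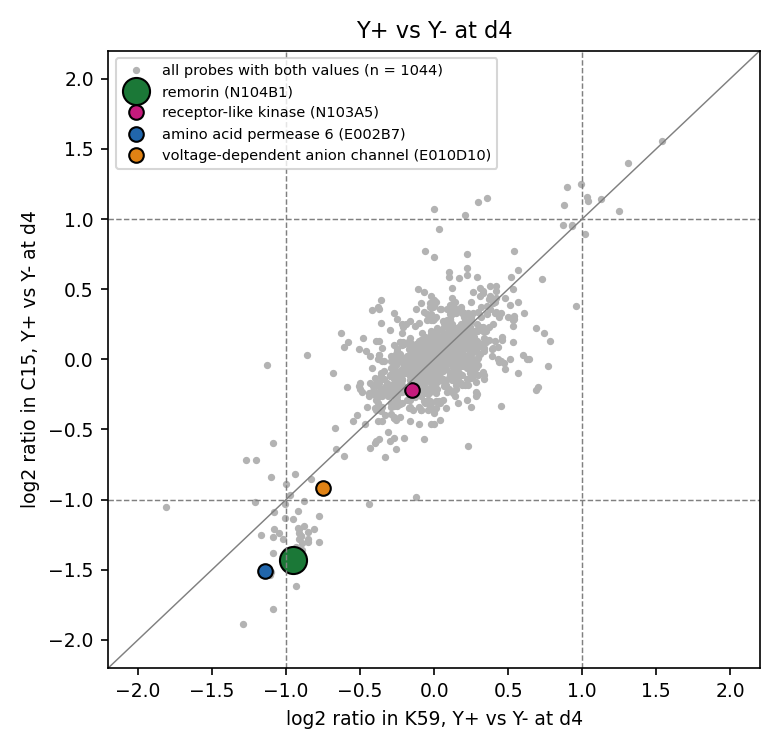
Log2 ratio of Y+ vs. Y- in K59 (horizontal axis) against C15 (vertical axis) for the 1044 probes with both values, in grey, with the 4 genes in colour (remorin drawn larger only to stay visible), the thresholds of 1 and -1 dashed and the line of equal values drawn. Remorin and amino acid permease 6 lie in a loose group of low probes at the lower left, the anion channel lies at its upper edge, and the receptor-like kinase lies among the bulk of probes.

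Between the d0 explants of the genotypes, no listed log2 ratio of the 4 genes was farther from 0 than that of remorin. The log2 ratio of K59 d0 vs. C15 d0 was -0.09 for remorin and -0.01 for amino acid permease 6, or 0.09 and 0.01 with the sign turned. For remorin, 59.8% of the 492 probes with a value lay at least as far from 0. The receptor-like kinase and the anion channel are listed at exactly 0.00, as are 57 probes in all. Whether 0.00 was measured or filled in is not stated, so equal signal at d0 cannot be read from it. Over all probes, 6.71% were at least 1 and 1.42% at most -1 in this comparison.

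Y+ explants can be placed relative to d0 explants of the same genotype by adding both log2 ratios of that genotype, since the Y- and d4 explants had the same culture. Whether the same RNA was used in both is not stated, and the sums were not measured on an array. In K59 the sum was 0.16 for remorin and -0.02 for amino acid permease 6, both within 0.25 of the d0 value. The sums of the permease and of the anion channel depend on the β-Glc Y ratios on which the sources conflict, and with ratios close to equal signal they would stay near the induction values. Of the 769 K59 probes with both values, 17.2% had a sum within 0.25 of 0. In C15 the sum was -1.18 for remorin and -1.27 for the permease, 2.27-fold and 2.41-fold below d0, and 11.5% of 1070 probes had a sum at or below -1.

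The sum of the anion channel was 1.03 in K59, where 18.3% of probes had at least 1, and 0.24 in C15, where 44.7% of probes lay within 0.25 of 0 as it did. The receptor-like kinase stood at -1.96 in K59 and -0.06 in C15, close to its values without the reagent.

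**Figure D4:**
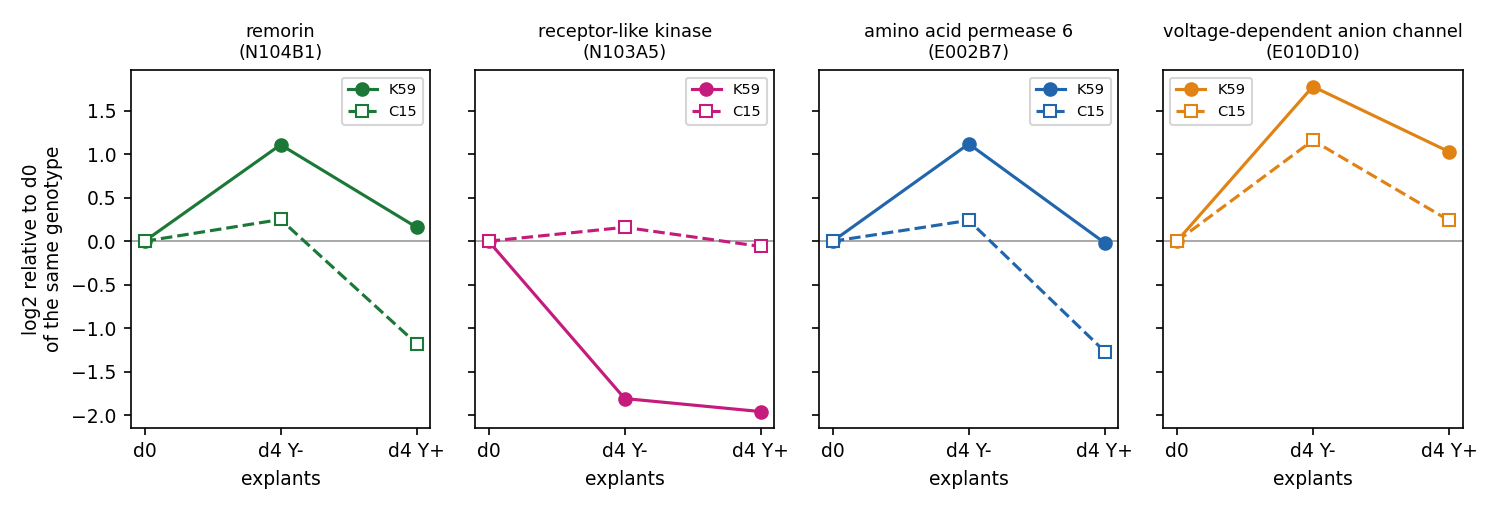
Log2 signal relative to d0 of the same genotype (vertical axis) in d0, d4 Y- and d4 Y+ explants (horizontal axis) for each gene, with K59 as filled circles and C15 as open squares, where the d4 Y+ point is the sum of 2 deposited ratios and no error is available. K59 lines of remorin and amino acid permease 6 return to about 0, their C15 lines end below -1, and the receptor-like kinase departs from 0 only in K59.

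Within the study's list of regulated genes, 12 belong to receptors and signal transduction, 3 of the members included. In K59 d4 vs. K59 d0 a value was present for 11, of which 6 were past the threshold upwards (17.3% of all probes) and 4 downwards (23.4%). The median of 1.11, beside 0.10 over all probes, is the value of remorin itself. The genes that are not members ran between -3.08 and 1.54, so no common direction can be read from it. Upwards with remorin in K59 were AR781 (1.17), the FH protein (1.32), a nuclear receptor (1.32) and peptidylprolyl isomerase (1.54), and downwards with the receptor-like kinase were the protein kinase C receptor (-1.24), myo-inositol-1-phosphate synthase (-1.42), which makes the precursor of inositol signals, and the calcium sensor calmodulin (-3.08). In C15, 1 was past the threshold upwards (1.54% of all probes), the anion channel, on whose value there the sources conflict. The same clone also stands in the transport and mitochondrial lists below. Downwards were 2 (8.30%), calmodulin (-1.18) and the protein kinase C receptor (-1.09). The receptor-like kinase thus shared its K59 direction with calmodulin but not its C15 value.

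Under β-Glc Y none of the 11 signalling genes with a value passed the threshold in K59, against 0.583% of all probes upwards and 2.00% downwards. In C15 remorin and the nuclear receptor (E002E12, -1.62) passed it downwards (3.81% of all probes) and a protein kinase family protein (E001C5, 1.25) upwards (1.03%). The nuclear receptor had -0.93 in K59, so its deposited values lay beside those of remorin in both genotypes, but it is among the genes on which the sources conflict. In K59, E001C5 had 0.99, far from the receptor-like kinase.

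Among 7 membrane transport genes were 2 members, the permease and the anion channel. After induction of K59, 4 of the 7 were past the threshold upwards (17.3% of all probes) and 2 downwards (23.4%). Their median of 1.06, beside 0.10 over all probes, includes both members. The other genes ran between -3.98 and 1.31, so no common direction can be read from it. The 4 upwards were both members, a glycerol-3-phosphate transporter (E006E10, 1.06) and the zinc transporter ZIP4 (E016G6, 1.31). In the opposite direction lay both MIP family proteins, the family of water channels, with -3.14 (E014D12) and -3.98 (E001G4). The sucrose transport protein SUT1 had -0.75 in K59 and -1.85 in C15. In C15 the anion channel alone was past the threshold upwards (1.54% of all probes) and 3 genes downwards (8.30%). The sources conflict on this anion channel value. In the deposited values after β-Glc Y, doubtful for this gene, the permease was the 1 transport gene past the threshold in either genotype. It passed it downwards, as did 2.00% of all probes in K59 and 3.81% in C15. The 5 transport genes that are not members lay between -0.09 and 0.16 in K59 (4 with a value) and between -0.36 and 0.16 in C15.

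Beside the anion channel, the list of mitochondrial membrane proteins holds prohibitin, a scaffold of the inner membrane, and a subunit of ubiquinol-cytochrome C reductase, part of the respiratory chain. All 3 were past the threshold upwards after induction of K59 (17.3% of all probes), prohibitin with 1.66 and the reductase with 1.09. The median of 1.66 stands beside 0.10 over all probes. In C15 prohibitin had 0.15 and the reductase 0.42, so that only the anion channel was past the threshold there (1.54% of all probes upwards). The sources conflict on that anion channel value. Under β-Glc Y prohibitin had -0.39 in K59 and -0.19 in C15, and the reductase -0.16 and -0.04. Both were nearer to 0 than the anion channel.

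Vesicle traffic brings membrane proteins to the cell surface. Of 4 such genes, 3 were past the threshold downwards after induction of K59 (23.4% of all probes) and none upwards, with a median of -1.46 beside 0.10 over all probes. They were beta-COP (-1.44), endomembrane protein 70 (-1.49) and ARF1 (-2.39). ARF1 alone was also past it in C15 (-1.07), against 8.30% of all probes downwards. Beta-COP (-0.03), endomembrane protein 70 (-0.10) and the AGD6 homologue (-0.32, with -0.39 in K59) stayed inside it there. Under β-Glc Y the AGD6 homologue was past it upwards in both genotypes (0.575% of the 1044 probes with both values), with 1.03 in K59 and 1.16 in C15. All 4 lists were drawn from genes that the study selected on these samples, so their counts are not independent evidence of a direction.

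**Figure D5:**
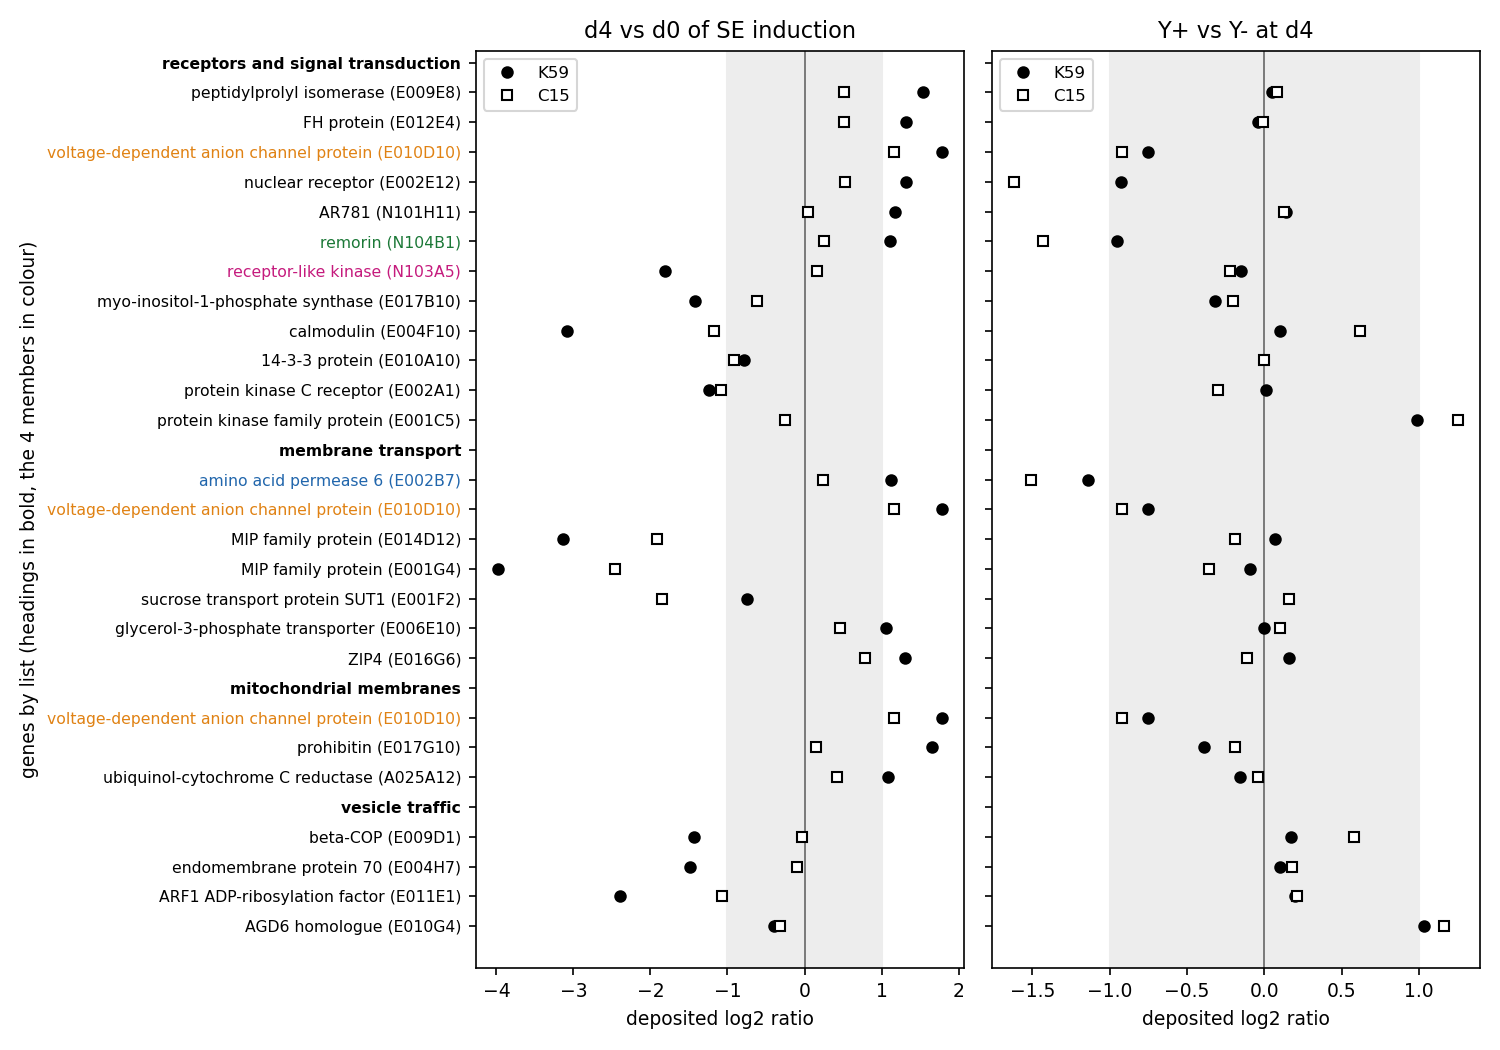
Deposited log2 ratios (horizontal axes, 1 value per gene and comparison, no error available) of the genes in 4 lists, for d4 vs. d0 on the left and Y+ vs. Y- on the right, with K59 as filled circles, C15 as open squares and the range between -1 and 1 shaded. On the left 3 members lie above 1 in K59 and the receptor-like kinase at -1.81, and on the right remorin, amino acid permease 6 and the nuclear receptor stand apart from most other listed genes at the low end.

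The profiles of the members were compared with those of the 466 other probes that have all 5 values, by the Euclidean distance between log2 ratios. In the deposited values, which are in doubt for the permease and the anion channel for the reason given above, remorin and amino acid permease 6 were each the second nearest probe to the other, at a distance of 0.22, where the median distance was 2.11 from remorin and 2.26 from the permease. The nearest to the permease was clone E002C11 at 0.07, with values of 1.13, 0.28, -1.11, -1.54 and 0.03 in the order of the comparisons given above. The nearest to remorin was E016E9 at 0.19. The third nearest to both was E017B2, at 0.23 from remorin and 0.36 from the permease. These 3 clones are not named in the study's list. The study counts fewer unique genes on the array than there are probes here. Whether these clones carry the same genes as the members is not known, so near neighbours may not be separate genes. In all, 9 probes lay within 0.5 of remorin and 10 within 0.5 of the permease. The order depends on the scale: with each comparison divided by its spread over all probes, the permease was the 14th nearest to remorin and remorin the 4th nearest to the permease.

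The likeness of these probes lies in the combination of both experiments. There were 35 probes within 0.25 of remorin in both β-Glc Y comparisons, and their K59 induction values ran between -3.78 and 1.90 with a median of 0.41, 8 of them at least 1 and 7 at most -1. Conversely, 81 probes lay within 0.25 of remorin in both induction comparisons, and their β-Glc Y values had medians of -0.02 (K59) and -0.04 (C15). Low values with the reagent were thus found in probes with very different responses to induction, and most probes that responded to induction as remorin did lay near 0 with the reagent. Probes share the slide and its normalization and are not independent.

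The other members had fewer close neighbours. No probe lay within 0.5 of the anion channel, and the nearest was E002G12 at 0.62, a clone without a name here that was also above 1 in both genotypes after induction (1.61 and 1.07). It was followed by ATP citrate lyase (N104B10, 0.78), which makes cytosolic acetyl-CoA, and a salt tolerance protein (E016C9, 0.80). For the receptor-like kinase 1 probe lay within 0.5, cyanate lyase (E005H8, 0.47), followed by 40S ribosomal protein S17 (N104E11, 0.54) and an H-type thioredoxin (E004A9, 0.56). None of these 3 stayed among its nearest when K59 d0 vs. C15 d0 was left out or each comparison was divided by its spread. Its distance to the other members was at least 3.26.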

How the data were processed

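The deposited values are log2 ratios, 1 per probe and comparison. Before deposit the authors corrected them within each slide for dye bias (lowess) and for the printing tip (median centring), working from background-corrected intensities. Unreliable spots, dim ones included, and probes whose sign turned with the dyes had been left out. How hybridizations were combined is not given in the sources used here. Spot intensities were not analysed here, so the precision of each value is unknown, a low-signal probe cannot be recognised, levels of different genes cannot be compared and the leaf identity of the explants could not be checked against marker genes.

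Computed here were counts past a log2 ratio of 1 or -1, ranks among all probes with a value, K59 minus C15 differences, sums of ratios within a genotype, and Euclidean distances. No test was made. The genes named are the 4 members, every gene of 4 lists built from the study's gene names, and the 3 probes nearest to each member. Members and lists were chosen with earlier results of these data known, and the windows of 0.25 and 0.5 after the values were seen. Counts, ranks and distances were tested on simulated data of 2112 probes, where 21 of 21 planted results were recovered. The planted values lay clear of the simulated noise, so this checks only that the code works as intended. Differences and sums were not checked in this way. Alternatives were a threshold of 0.95 or 1.5, subtracting comparison or plate medians (22 plates), ranking only the 467 probes with all 5 values, and 2 other distances. Python 3.11.15, numpy 2.4.6, pandas 2.3.3 and matplotlib 3.10.9 were used.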

Additional observations from a re-analysis of the deposited data

Results flagged for a closer look

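The receptor-like kinase (N103A5) was lower in d4 than in d0 explants of K59 (-1.81) and slightly higher in those of C15 (0.16), a difference of -1.97 on the log2 scale. It was picked out because its signs are opposite in the genotypes. With 1 value per genotype the difference was not tested, and the C15 value lies well inside the bulk of that comparison, where 61.2% of probes lay at least as far from 0.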

How the results depend on the processing

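Subtracting the median of each comparison changed the class of none of the 20 log2 ratios and none of the 10 counts of members. Subtracting plate medians changed 1 of the 20 log2 ratios, that of amino acid permease 6 in K59 after induction (0.85), which left 2 members instead of 3 past the threshold there, and raised the K59 minus C15 difference of remorin after induction to 2.22. At a threshold of 0.95, 2 members instead of 1 were low in K59 with β-Glc Y, remorin being the second. At 1.5, 1 member instead of 3 was high in K59 after induction and 0 instead of 1 in C15, and 0 instead of 1 was low with β-Glc Y in K59 and 1 instead of 2 in C15. Of 120 list counts, 16 changed by more than 1.5 times, all under a different threshold. Ranking only probes with all 5 values moved no percentile by over 10 points. Without K59 d0 vs. C15 d0, 0 of the 3 probes nearest to the receptor-like kinase were the same. With each comparison divided by its spread, 0 of 3 were the same for that gene, 1 of 3 for remorin and 1 of 3 for the permease, and the permease was the 14th nearest to remorin instead of the 2nd. No paired analysis was possible because each comparison has 1 value per probe, and for the same reason no replicate could be left out.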
